A study of Mus musculus with 9 samples.

Results

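The enzymes that build heme were followed in C2C12 myotubes, muscle fibres formed in culture from a mouse myoblast line, after adenovirus had raised the coactivator PGC-1α. The genes were the rows of both expression tables named Alas1, Alad, Uros, Urod, Cpox, Ppox and Fech, 7 of 55421 genes, and all 7 passed the filter on low values in every comparison. They are not every enzyme of the pathway. The viruses carried HA-Flag-tagged PGC-1α at full length (FL), PGC-1α with its C-terminal domain deleted (dCTD), or LacZ as the control. All myotubes had differentiated for 4 days and were exposed to virus at a multiplicity of infection of 3 for 4 h within a total of 48 h, so the controls were infected too and every group is a forced overexpression in 1 cell line. Each virus had 3 libraries of polyadenylated RNA, given as biological replicates, with 99906750 to 123446198 counted reads for FL, 87090490 to 110673140 for dCTD and 110309704 to 118931863 for LacZ.

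Heme is an iron-holding ring made from glycine and succinyl-CoA. The pathway starts in the mitochondrion, passes through the cytosol and ends in the mitochondrion, where iron is inserted. Alas1 encodes the aminolevulinate synthase of cells outside the red blood lineage, the rate-limiting enzyme, and heme itself represses it. PGC-1α is known in mouse liver to raise Alas1 during fasting through the factors NRF1 and FOXO1. In muscle, heme is needed by myoglobin and by the cytochromes of the respiratory chain.

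Transgene reads set both PGC-1α viruses apart from LacZ. Ppargc1a, the gene of PGC-1α, had 211489 ± 14759 normalized counts in FL libraries, 112756 ± 10934 in dCTD libraries and 397 ± 13.0 in LacZ libraries (mean ± SD, n = 3 each). Reads within the deleted domain were not examined, so the FL and dCTD labels were not checked against each other. The deleted domain and the lower transcript count with dCTD cannot be told apart in any difference between FL and dCTD. The 9 myotube markers, which include the myosin gene Myh3 and the actin gene Acta1, were detected in every library, with a summed level of 882894 to 934913 normalized counts with FL, 827139 to 869918 with dCTD and 1081920.4 to 1142818 with LacZ. Of these markers 7 fell and 1 rose with FL against LacZ, and 6 fell and 2 rose with dCTD against LacZ. Their part in the results below was not tested, and in bulk RNA fewer cells of a type and less RNA per cell cannot be told apart. Red cell precursors are the other cells known for strong heme synthesis. Their markers Hbb-bs and Hbb-bt were at 0 in all libraries, and Alas2, the red cell isoform of the first enzyme, had 12 reads in all with FL, 12 with dCTD and 2 with LacZ. The summed level of the 11 red cell markers was 1803 to 1987 with FL, 654 to 792 with dCTD and 258 to 317 with LacZ, and most of it with FL and dCTD came from the globin gene Hba-a1. Markers of other cells had summed levels of 12007 to 13316, 12742 to 13411 and 14585 to 15154 with FL, dCTD and LacZ for 3 myoblast genes and of 515210.3 to 528368, 515334 to 533141 and 527073 to 544749 for 4 fibroblast genes, and 5 hepatocyte genes summed to at most 3.34 in any library.

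The transcript of the first enzyme changed by a larger factor than those of the other 6 enzymes. Against LacZ, FL raised Alas1 4.04-fold, raised Alad, Urod and Cpox by 1.26-fold to 1.54-fold, lowered Uros to 0.836 of its level and left Ppox and Fech without a detected change. The dCTD virus raised Alas1 2.71-fold, raised Alad, Urod, Cpox and Fech by 1.08-fold to 1.17-fold and lowered Uros to 0.907 of its level, again without a detected change of Ppox. These folds come from limma on log2(normalized count + 1), and values per library below are normalized counts on 1 scale shared by the 9 libraries.

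Alas1 (chr9:106233455-106248654, minus strand, mm10) had 18964, 17684 and 18066 normalized counts in the FL libraries, 12407, 12045 and 12409.5 in the dCTD libraries and 4506, 4570.03 and 4474 in the LacZ libraries. The 3 groups were fully separated, with FL highest and LacZ lowest. The log2 fold change of Alas1 was 2.01 ± 0.038 (SE; adjusted p = 5.83e-28) for FL over LacZ, 1.44 ± 0.037 (SE; adjusted p = 1.2e-19) for dCTD over LacZ and 0.57 ± 0.036 (SE; adjusted p = 5.22e-14) for FL over dCTD, by limma with Benjamini-Hochberg adjustment over all tested genes. FL and dCTD share the LacZ libraries, so their contrasts with LacZ are not independent. Among all tested genes, 588 of 18227 had a higher log2 fold change than Alas1 with FL against LacZ, 405 of 18066 with dCTD against LacZ and 1399 of 18129 with FL against dCTD. Of the 7 enzymes Alas1 alone was called and at least 2-fold higher with FL or with dCTD than with LacZ, where 8.65% and 4.30% of all tested genes were. None of the 7 was called and at least 2-fold higher with FL than with dCTD, where 3.43% of all tested genes were. The noncoding RNA gene 4930500F10Rik overlaps Alas1 on the other strand and averaged 16.8 normalized counts with FL, 16.4 with dCTD and 15.3 with LacZ, a very small count beside that of Alas1. The 2 genes share 465 exon bases. No source used here says whether counting used strand, so the level of Alas1 is uncertain to that extent.

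The start of Alas1 is shown because its transcript moved most, beside those of Urod and Alad, the later enzymes with the next largest rise with FL. The windows run from 250 bases before to 50 bases after a start site of RefSeq on GRCm38.p6, 5′ to 3′ on the gene's strand. Capitals mark GCGCATGC, the core of the binding motif of the nuclear respiratory factor NRF1, in Alas1, where it occurs once on each strand in overlap, and the E-box CACGTG in Urod and Alad.
Alas1, chr9:106247681-106247980, minus strand: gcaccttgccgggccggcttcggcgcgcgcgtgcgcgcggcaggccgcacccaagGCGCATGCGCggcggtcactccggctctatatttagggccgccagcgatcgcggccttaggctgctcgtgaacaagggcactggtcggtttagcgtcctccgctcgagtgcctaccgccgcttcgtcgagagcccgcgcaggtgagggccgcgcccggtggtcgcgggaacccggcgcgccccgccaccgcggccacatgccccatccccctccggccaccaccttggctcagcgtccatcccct
Urod, chr4:116994364-116994663, minus strand: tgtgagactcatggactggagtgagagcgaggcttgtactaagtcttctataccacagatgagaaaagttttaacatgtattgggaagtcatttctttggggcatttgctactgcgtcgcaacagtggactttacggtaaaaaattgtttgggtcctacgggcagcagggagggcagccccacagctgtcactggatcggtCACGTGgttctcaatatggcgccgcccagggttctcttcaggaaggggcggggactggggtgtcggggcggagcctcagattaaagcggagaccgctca
Alad, chr4:62519860-62520159, minus strand: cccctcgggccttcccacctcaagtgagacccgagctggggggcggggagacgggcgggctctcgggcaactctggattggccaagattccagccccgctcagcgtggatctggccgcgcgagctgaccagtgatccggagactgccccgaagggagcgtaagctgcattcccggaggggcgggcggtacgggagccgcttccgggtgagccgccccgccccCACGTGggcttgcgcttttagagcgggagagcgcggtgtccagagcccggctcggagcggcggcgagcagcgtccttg

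Windows were found for 6 of the 7 enzymes, 9 windows in all, and were searched on both strands for 6 motifs: the NRF1 core GCGCATGC, the estrogen-related receptor motif TCAAGGTCA and its shorter form AAGGTCA, which overlaps it, the FOXO motif TGTTTAC, the GABP motif CCGGAAGT and the E-box CACGTG. The NRF1 core was in both windows of Alas1, at the same bases, -195 to -186 from the start site of the window printed, and in no window of the other enzymes. From the start site of the other Alas1 window these bases lie at 29 to 38, after that start. The NRF1 core is held by 2.71% of the 32851 promoter windows of the table. The E-box was in both windows of Alad, in that of Urod and in 1 of Uros, and is held by 7.15% of all windows. The long and the short receptor motif, the FOXO motif and the GABP motif, held by 0.423%, 4.72%, 3.65% and 3.89% of all windows, matched no window of these enzymes. A match is a match of letters and not a binding site, and the absence of one says only that the letters are not in the window.

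Alad encodes the dehydratase that joins aminolevulinate molecules into porphobilinogen and lies at chr4:62509169-62519918, minus strand. Its normalized counts were 4450.3, 4324 and 4460.1 with FL, 3398, 3288 and 3459 with dCTD and 2848, 3103 and 2844 with LacZ. FL libraries were highest, LacZ libraries lowest, and no groups overlapped. By limma, Alad rose with FL against LacZ by a log2 fold change of 0.59 ± 0.043 (SE; adjusted p = 2.86e-13), with dCTD against LacZ by 0.20 ± 0.045 (SE; adjusted p = 0.00078) and with FL against dCTD by 0.38 ± 0.038 (SE; adjusted p = 1.2e-09).

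Uros closes the ring into uroporphyrinogen III and lies at chr7:133686243-133710072, minus strand. Its normalized counts were 2202, 2065 and 2095 with FL, 2298, 2273 and 2365 with dCTD and 2535, 2633 and 2444 with LacZ. The order was the reverse of that of Alad, with FL lowest, and again the groups did not overlap. Uros fell with FL against LacZ, with a log2 fold change of -0.26 ± 0.046 (SE; adjusted p = 1.53e-05) by limma. The smaller falls with dCTD against LacZ, -0.14 ± 0.045 (SE; adjusted p = 0.013), and with FL against dCTD, -0.12 ± 0.043 (SE; adjusted p = 0.0218), also passed the limma test. The call for dCTD against LacZ was lost without LacZ replicate 2 (adjusted p = 0.0722), and the call for FL against dCTD without FL replicate 2 (0.0915), FL replicate 3 (0.0797) or dCTD replicate 3 (0.0751). Bccip overlaps the start of Uros on the other strand without shared exon bases, and its own log2 fold change was 0.011 for FL against LacZ (limma adjusted p = 0.833).

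Urod removes carboxyl groups from the ring to give coproporphyrinogen and lies at chr4:116989965-116994413, minus strand. Its normalized counts were 9599, 8600.2 and 8866 with FL, 6906, 6334 and 7410.3 with dCTD and 5808, 6042 and 5677 with LacZ. The groups did not overlap, although the dCTD libraries differed among themselves more, relative to their mean, than those of the other groups. By limma, Urod rose by a log2 fold change of 0.63 ± 0.041 (SE; adjusted p = 4.41e-14) with FL against LacZ, 0.23 ± 0.048 (SE; adjusted p = 0.00046) with dCTD against LacZ and 0.39 ± 0.050 (SE; adjusted p = 3.51e-06) with FL against dCTD.

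Cpox oxidizes coproporphyrinogen between the mitochondrial membranes and lies at chr16:58670292-58717636, plus strand. Its normalized counts were 4357, 3967 and 4213 with FL, 3625, 3698 and 3509.95 with dCTD and 3318, 3315 and 3347 with LacZ. FL was highest and LacZ lowest, without overlap. Cpox rose with FL against LacZ by a log2 fold change of 0.33 ± 0.042 (SE; adjusted p = 6.43e-08) and with FL against dCTD by 0.21 ± 0.041 (SE; adjusted p = 9.42e-05), by limma. The rise with dCTD against LacZ, 0.11 ± 0.041 (SE; adjusted p = 0.0311), was called in 8 of 17 other settings, with adjusted p-values of 0.0191 to 0.127. It was lost when any of the LacZ libraries, dCTD replicate 1 or dCTD replicate 2 was left out, with adjusted p-values of 0.0544 to 0.127. The receptor gene Gpr15 overlaps Cpox on the other strand, shares 204 exon bases with it and had means of 4.38 with FL, 5.72 with dCTD and 10.3 with LacZ. The level of Cpox is uncertain to that extent, since the strand setting of counting is not known.

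Ppox oxidizes protoporphyrinogen to protoporphyrin and lies at chr1:171275990-171281186, minus strand. Its normalized counts were 1765, 1817 and 1769.8 with FL, 1804, 1872 and 1941 with dCTD and 1918, 1866 and 1683 with LacZ. All pairs of groups overlapped. No difference in Ppox passed the limma test, with log2 fold changes of -0.028 ± 0.051 (SE; adjusted p = 0.659) for FL over LacZ, 0.033 ± 0.053 (SE; adjusted p = 0.654) for dCTD over LacZ and -0.069 ± 0.046 (SE; adjusted p = 0.248) for FL over dCTD. The 95% intervals were -0.13 to 0.076, -0.077 to 0.14 and -0.16 to 0.024 in that order. With libraries scaled by total counts without Ppargc1a, Ppox passed for FL against dCTD (-0.14, adjusted p = 0.0164, limma). Ppox shares 791 exon bases with B4galt3 on the other strand, which had a mean of 1867 with FL, 1768 with dCTD and 1843 with LacZ, and since no source used here says whether counting used strand, the level of Ppox is uncertain to that extent.

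Fech, the ferrochelatase that puts iron into the ring, lies at chr18:64452914-64490251, minus strand. Its normalized counts were 15775, 14971 and 15095 with FL, 17584, 17558 and 17940.2 with dCTD and 14982, 14967 and 15418 with LacZ. Here the dCTD libraries stood above all others, whereas FL and LacZ libraries overlapped. The log2 fold change was 0.015 ± 0.037 (SE; adjusted p = 0.747) for FL against LacZ, with a 95% interval of -0.060 to 0.091, and 0.22 ± 0.036 (SE; adjusted p = 2.3e-05) for dCTD against LacZ, by limma. Fech was lower with FL than with dCTD, with a log2 fold change of -0.21 ± 0.035 (SE; adjusted p = 1.1e-05) by limma, a call that all 16 other settings shared. The uncalled value for FL against LacZ turned to -0.072 when libraries were scaled by their total counts without Ppargc1a. Of the 7 enzymes, Fech was thus the 1 that rose with dCTD against LacZ and was lower with FL than with dCTD.

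For FL against LacZ, 5 of the 7 enzymes were called, 4 higher and 1 lower, where 59.2% of all tested genes were called, 30.9% higher and 28.3% lower. For dCTD against LacZ, 6 were called, 5 higher and 1 lower, beside 44.8% of all tested genes, 23.1% higher and 21.7% lower. For FL against dCTD, 6 were called, 4 higher and 2 lower, beside 40.2% of all tested genes, 22.4% higher and 17.8% lower. Groups without overlap were seen for 5, 6 and 6 enzymes in these comparisons, and for 64.1%, 52.3% and 48.8% of all tested genes. The median log2 fold change of the 7 was 0.33 with FL against LacZ, 0.20 with dCTD against LacZ and 0.21 with FL against dCTD, and over all tested genes it was -0.0070, -0.0059 and -0.0024. With 59.2% of all tested genes called, 5 of 7 with FL against LacZ is not read as a result about these enzymes, and the counts for the other comparisons include calls of Uros and Cpox that depend on the libraries and settings given above. In the authors' deposited table, whose DESeq2 test is separate from the limma test here, the same enzymes had an adjusted p under 0.05 in both comparisons with LacZ, and the log2 fold change of Alas1 over LacZ was 2.01 with FL and 1.43 with dCTD.

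**Figure D1:**
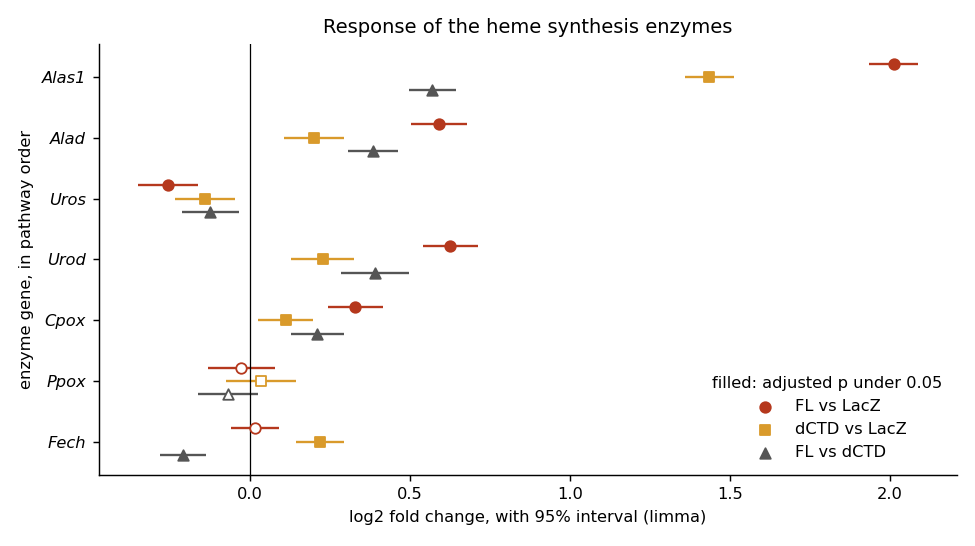
Log2 fold changes (horizontal axis) with 95% intervals for the enzymes in pathway order (top to bottom), for FL over LacZ, dCTD over LacZ and FL over dCTD; filled symbols had an adjusted p under 0.05. Alas1 lies at 2.01 with FL and 1.44 with dCTD against LacZ, while the other 6 lie between -0.26 and 0.63.

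Levels of different genes were compared per kilobase of the principal annotated transcript. In LacZ libraries Alas1 had 1329 ± 14.3 normalized counts per kb (mean ± SD, n = 3), below Urod (3923 ± 124), Alad (2351 ± 119), Fech (2301 ± 38.9) and Uros (1440.02 ± 53.6), and above Cpox (1074 ± 5.59) and Ppox (1001 ± 67.6). With FL, Alas1 stood below Urod alone, at 5366 ± 193 per kb against 6059 ± 347 for Urod, followed by Alad (3538 ± 61.0), Fech (2325 ± 65.8), Cpox (1349 ± 63.6), Uros (1204 ± 40.8) and Ppox (979.7 ± 15.8). With dCTD, Alas1 was again below Urod alone, at 3615 ± 61.7 per kb against 4623 ± 362 for Urod. The rest followed as Alad (2712 ± 69.6), Fech (2693 ± 32.5), Uros (1312 ± 26.9), Cpox (1166 ± 30.6) and Ppox (1028 ± 37.8). Alad and Fech overlapped between libraries with dCTD and with LacZ, and the other neighbours in each order did not. The order of Alas1 and Uros in LacZ libraries turned round when all annotated exon bases were used as the length. Urod was highest and Ppox lowest per kb in all 3 groups, with either length. Ppox shares 791 exon bases with a gene on the other strand, Alas1 465 and Cpox 204. Whether counting used strand is not known, so the places of these enzymes, the lowest place of Ppox among them, are uncertain to that extent.

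**Figure D2:**
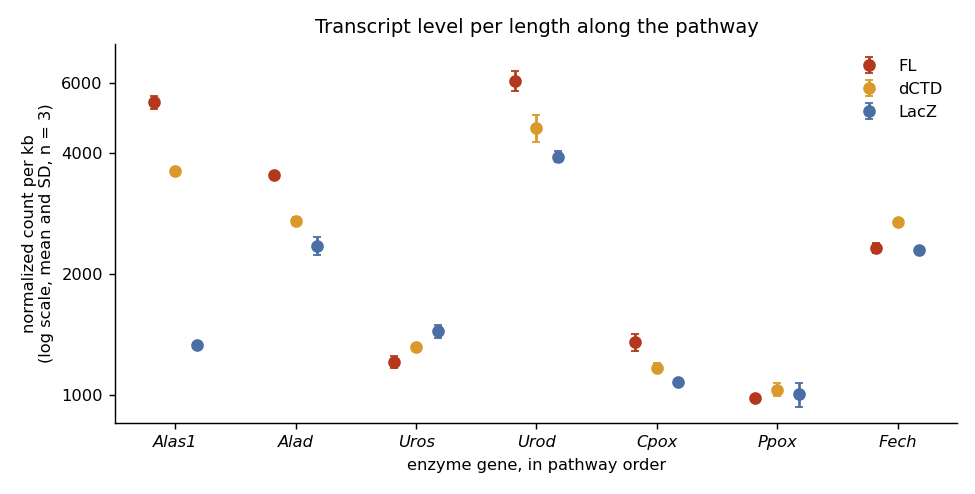
Normalized counts per kb of principal transcript (log axis) of the enzymes in pathway order; points are group means and bars SDs over 3 libraries, for FL, dCTD and LacZ. Alas1 lies near 1329 per kb with LacZ, among the lower enzymes, and near 5366 with FL, next to Urod.

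The ratio of Alas1 reads to the reads of a later enzyme in the same library does not depend on how libraries are scaled. Over Fech, the last enzyme, this ratio was 1.19 ± 0.0109 with FL, 0.694 ± 0.0101 with dCTD and 0.299 ± 0.00777 with LacZ (mean ± SD, n = 3 each). Over Urod it was 2.02 ± 0.0422 with FL, 1.79 ± 0.114 with dCTD and 0.774 ± 0.0160 with LacZ. Over Uros it was 8.60 ± 0.0331 with FL, 5.32 ± 0.0777 with dCTD and 1.78 ± 0.0476 with LacZ. Every library with FL thus held more Alas1 than Fech reads, and every library with dCTD or LacZ fewer. These reads are not corrected for length, and the principal transcript has 6571 bases for Fech and 3399 for Alas1. Per kb the mean ratio over Fech was 2.31 with FL, 1.34 with dCTD and 0.578 with LacZ, so with dCTD Alas1 stood above Fech. Over Alad the ratio of reads was 4.13 ± 0.112 with FL, 3.63 ± 0.0408 with dCTD and 1.54 ± 0.0609 with LacZ. Over Cpox it was 4.37 ± 0.0854 with FL, 3.41 ± 0.140 with dCTD and 1.36 ± 0.0208 with LacZ. Over Ppox it was 10.2 ± 0.507 with FL, 6.57 ± 0.269 with dCTD and 2.49 ± 0.157 with LacZ. For all 6 of these later enzymes the libraries of each pair of groups did not overlap, with FL highest and LacZ lowest.

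On the log2 scale the ratio was higher with FL than with LacZ by 1.39 over Urod to 2.27 over Uros, and higher with dCTD than with LacZ by 1.21 over Urod to 1.58 over Uros. FL exceeded dCTD by 0.18 over Urod, 0.19 over Alad, 0.36 over Cpox, 0.64 over Ppox, 0.69 over Uros and 0.78 over Fech. Each such difference is the log2 fold change of Alas1 minus that of the later enzyme. Its order over the enzymes therefore follows from their own changes by arithmetic and is not a separate result. Each of the 18 differences had an exact two-sided permutation p = 0.10, also after adjustment over the 18, which is the smallest p that 3 against 3 libraries can give. The log2 fold change of Alas1 exceeded the median of the later enzymes by 1.84 with FL against LacZ, 1.28 with dCTD against LacZ and 0.50 with FL against dCTD.

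**Figure D3:**
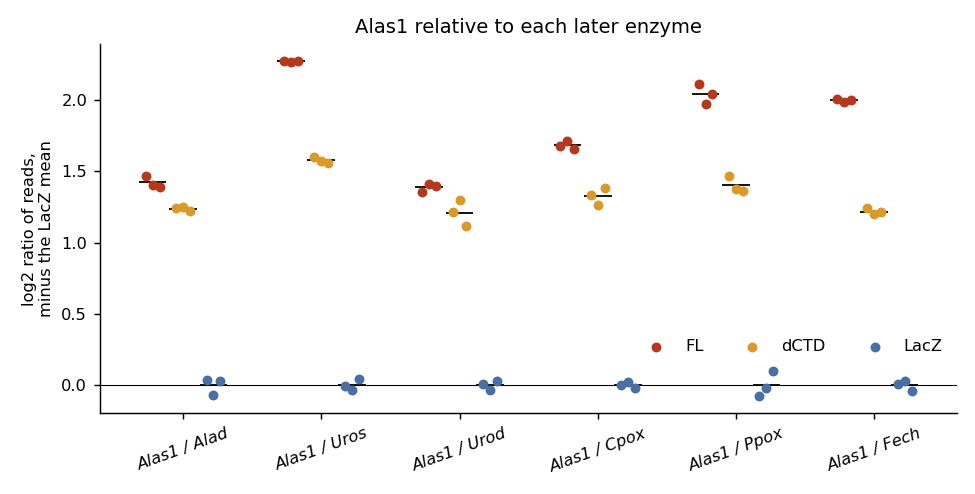
Log2 ratio of Alas1 reads to the reads of each later enzyme, minus the mean of LacZ libraries; points are libraries with FL, dCTD and LacZ and bars are means of 3. The FL libraries lie highest for every enzyme, closest to the dCTD libraries for Alad and Urod.

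The genes most like Alas1 over the 9 libraries included none of the other 6 enzymes. Among 14383 genes with a mean of at least 50, those with the smallest root-mean-square difference from Alas1, on the log2 scale relative to LacZ, were Cox5a (0.0494) and Uqcrfs1 (0.0549), subunits of respiratory complexes, Acadvl (0.0640), a fatty acid oxidation enzyme, Nudt19 (0.0696) and Stard5 (0.0727). The later enzymes ranked from 1846 for Urod and 1982 for Alad through 3256 for Cpox, 5011 for Fech and 6983 for Ppox to 11560 for Uros. This measure compares sizes of change relative to LacZ. The ranks of the later enzymes therefore largely restate their smaller or opposite fold changes and are not a separate result. Alad, Urod and Cpox share with Alas1 the order of FL highest and LacZ lowest.

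Around the pathway, the genes that supply precursors and carry glycine and porphyrins across mitochondrial membranes rose. With FL against LacZ, 16 of 16 tested genes of this list rose and 0 fell. With dCTD against LacZ 14 rose and 0 fell, and with FL against dCTD 13 rose and 0 fell. Of all tested genes 30.9%, 23.1% and 22.4% were higher in these comparisons. The median log2 fold changes of the list were 0.87, 0.54 and 0.28. Ogdh, a subunit of the enzyme complex that makes succinyl-CoA, averaged 125595 ± 5844 normalized counts with FL, 64861 ± 1618 with dCTD and 21606 ± 1061 with LacZ. Its log2 fold change was 2.54 ± 0.042 (SE; adjusted p = 5.56e-29) with FL and 1.58 ± 0.041 (SE; adjusted p = 1.2e-19) with dCTD against LacZ, by limma. Slc25a39, a mitochondrial carrier needed for heme synthesis and known as a glutathione importer, had log2 fold changes of 1.68 ± 0.040 (SE; adjusted p = 2.24e-25) with FL against LacZ and 0.80 ± 0.039 (SE; adjusted p = 9.97e-17) with FL against dCTD. Lonp1, the mitochondrial protease known to degrade the Alas1 protein, rose with FL against LacZ by 1.69 ± 0.039 (SE; adjusted p = 8.27e-26) on the log2 scale, by limma.

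Of the genes that turn heme into heme a or attach it to cytochrome c, 6 of 7 tested rose and 0 fell both with FL and with dCTD against LacZ, and 3 of 7 rose and 0 fell with FL against dCTD, beside the same 30.9%, 23.1% and 22.4% of all tested genes higher. The median log2 fold changes were 0.56, 0.47 and 0.083. Fdx2 did not pass with FL against LacZ, 0.25 ± 0.24 (SE; adjusted p = 0.374) by limma. Hccs, which attaches heme to cytochrome c, averaged 15369 ± 857 normalized counts with FL, 8046 ± 287 with dCTD and 3632 ± 108 with LacZ, a log2 fold change of 2.08 ± 0.041 (SE; adjusted p = 2.8e-27) with FL against LacZ by limma. Cox10, which makes heme o on the way to heme a, had a log2 fold change of 1.88 ± 0.045 (SE; adjusted p = 2.37e-25) with FL and 1.38 ± 0.045 (SE; adjusted p = 1.02e-17) with dCTD against LacZ. Fdx1, a ferredoxin that passes electrons to mitochondrial enzymes, had the widest gap between the viruses in this list, 1.58 ± 0.048 (SE; adjusted p = 1.01e-18) with FL against dCTD.

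Of the heme export and breakdown genes, 5 of 15 rose and 5 fell with FL against LacZ, beside 30.9% higher and 28.3% lower of all tested genes. With dCTD against LacZ 4 rose and 6 fell, beside 23.1% and 21.7%, and with FL against dCTD 3 rose and 2 fell, beside 22.4% and 17.8%, with medians of -0.041, -0.070 and 0.0069. With FL against LacZ these shares are near those of all genes. Hmox2, the constitutive heme oxygenase that degrades heme, averaged 15679.7 ± 1004 normalized counts with FL, 9331 ± 409.8 with dCTD and 5498 ± 222 with LacZ, a log2 fold change of 1.51 ± 0.043 (SE; adjusted p = 6.3e-22) with FL and 0.76 ± 0.042 (SE; adjusted p = 2.05e-13) with dCTD against LacZ by limma. The other heme oxygenase gene, Hmox1, lies outside the naming rule and is given because it moved the other way. It averaged 5348 ± 214 normalized counts with FL, 5112 ± 273 with dCTD and 5845 ± 256 with LacZ. Its log2 fold change by limma was -0.13 ± 0.041 (SE; adjusted p = 0.00896) with FL and -0.20 ± 0.045 (SE; adjusted p = 0.000666) with dCTD against LacZ. Bach1, a repressor that heme inactivates, fell with FL against LacZ, with a log2 fold change of -0.32 ± 0.037 (SE; adjusted p = 1.12e-08). Flvcr2, a membrane transporter that binds heme, fell with a log2 fold change of -0.80 ± 0.11 (SE; adjusted p = 2.98e-07) with FL against LacZ. Pgrmc2, a heme chaperone, was lower with FL than with dCTD, with a log2 fold change of -0.18 ± 0.037 (SE; adjusted p = 0.00021).

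Among iron genes 5 of 15 rose and 6 fell with FL against LacZ, beside 30.9% higher and 28.3% lower of all tested genes. With dCTD against LacZ 5 rose and 0 fell, beside 23.1% and 21.7%, and with FL against dCTD 5 rose and 6 fell, beside 22.4% and 17.8%, with medians of 0.060, 0.035 and 0.018. Tfrc, the transferrin receptor through which cells take up iron, averaged 228291 ± 18141 normalized counts with FL, 125878 ± 8170.1 with dCTD and 38865 ± 4632 with LacZ, a log2 fold change of 2.56 ± 0.11 (SE; adjusted p = 7.74e-06) with FL and 1.69 ± 0.086 (SE; adjusted p = 2.48e-07) with dCTD against LacZ by limma. Slc25a28, a mitochondrial iron importer, had 1.18 ± 0.048 (SE; adjusted p = 1.38e-19) with FL against LacZ and 0.86 ± 0.048 (SE; adjusted p = 3.8e-15) with FL against dCTD. Aco1, which also acts as an iron regulatory protein, rose by 0.42 ± 0.038 (SE; adjusted p = 5.37e-11) with FL against LacZ. The iron genes named here all rose with FL against LacZ, and none of the 6 that fell is among them, so they do not stand for the list.

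Of the proteins that hold heme and their reductases, 9 of 18 tested rose and 6 fell with FL against LacZ, beside 30.9% higher and 28.3% lower of all tested genes. With dCTD against LacZ 7 of 19 rose and 4 fell, beside 23.1% and 21.7%, and with FL against dCTD 9 of 18 rose and 5 fell, beside 22.4% and 17.8%, with medians of 0.23, -0.022 and 0.12. The cytochrome c gene Cycs averaged 90995 ± 3778 normalized counts with FL, 52508 ± 1795 with dCTD and 11829 ± 559 with LacZ, a log2 fold change of 2.94 ± 0.041 (SE; adjusted p = 5.97e-31) with FL and 2.14 ± 0.041 (SE; adjusted p = 4.44e-22) with dCTD against LacZ by limma. Cyc1 and Sdhd, subunits of respiratory complexes, rose with FL against LacZ by 2.17 ± 0.040 (SE; adjusted p = 4.86e-28) and 1.77 ± 0.042 (SE; adjusted p = 1.74e-24). Mb, the myoglobin gene, averaged 23909 ± 1152 normalized counts with FL, 48804 ± 3273 with dCTD and 50687 ± 5748 with LacZ. Its log2 fold change by limma was -1.08 ± 0.087 (SE; adjusted p = 3.41e-05) with FL against LacZ and -1.03 ± 0.044 (SE; adjusted p = 7.91e-16) with FL against dCTD, whereas dCTD against LacZ gave -0.058 ± 0.082 (SE; adjusted p = 0.614). Of the 9 myotube markers, 7 fell and 1 rose with FL against LacZ, and 6 fell and 2 rose with dCTD against LacZ. Their summed level was lowest with dCTD, where no change of Mb was detected. Their part in the level of Mb was not tested.

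**Figure D4:**
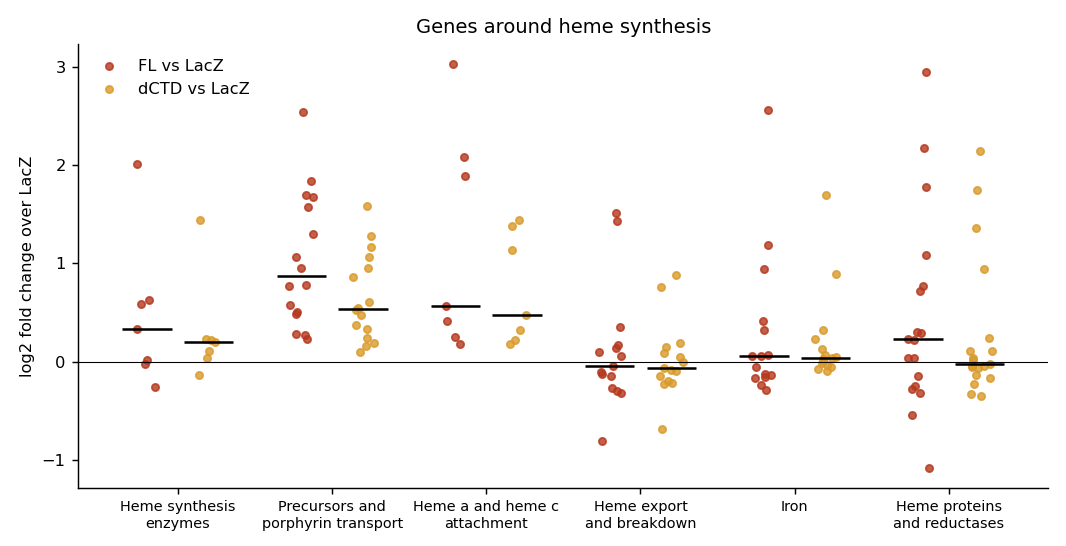
Log2 fold change over LacZ (vertical axis) of the 7 heme synthesis enzymes and of each tested gene of 5 lists around them, with FL and with dCTD; points are genes and bars are medians. Every tested gene of the precursor and transport list lies above 0, whereas the export, iron and heme protein lists lie on both sides.

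Of the transcription factors linked to Alas1 or to PGC-1α at respiratory genes, 9 of 14 tested rose and 2 fell with FL against LacZ, beside 30.9% higher and 28.3% lower of all tested genes. With dCTD against LacZ 8 rose and 1 fell, beside 23.1% and 21.7%, and with FL against dCTD 9 rose and 1 fell, beside 22.4% and 17.8%, with medians of 0.41, 0.24 and 0.17. Esrra, an estrogen-related receptor and partner of PGC-1α, averaged 18863 ± 772 normalized counts with FL, 10239.7 ± 375 with dCTD and 2920.5 ± 313 with LacZ, and was higher with FL than with dCTD by a log2 fold change of 0.88 ± 0.038 (SE; adjusted p = 5.96e-18) by limma. Ppara, a nuclear receptor of fatty acid oxidation, rose by 3.64 ± 0.12 (SE; adjusted p = 1.83e-21) with FL against LacZ and by 2.37 ± 0.099 (SE; adjusted p = 3.27e-18) with FL against dCTD. Tfam, the mitochondrial DNA factor, rose by 1.46 ± 0.043 (SE; adjusted p = 1.53e-21) with FL and by 0.81 ± 0.043 (SE; adjusted p = 7.67e-14) with dCTD against LacZ, and Gabpa, the DNA-binding part of GABP, by 0.93 ± 0.038 (SE; adjusted p = 1.97e-19) with FL against LacZ. Nrf1, named here for the motif at Alas1, had 0.14 ± 0.044 (SE; adjusted p = 0.00809) with FL and -0.065 ± 0.044 (SE; adjusted p = 0.242) with dCTD against LacZ, by limma. Foxo1 had -0.048 ± 0.041 (SE; adjusted p = 0.334) with FL against LacZ, which did not pass the test.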

How the data were processed

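Polyadenylated RNA of 9 cultures went into strand-specific libraries, per the labels' protocols. Per the submitters' processing notes, the build was mm10 and the tools were STAR 2.7.2b, Trim Galore 0.4.3.1, DESeq2 2.11.40.6, featureCounts 1.6.4 and FastQC 0.72. The settings, strand among them, are not given in the sources used here. The authors deposited normalized counts per library, per the file headers (a signal: counts divided by a size factor), in 2 tables of 55421 genes that share the LacZ libraries. Whole reads were recovered for 100% of 317312 values above 0, within 0.001 reads, and both tables gave the same LacZ reads for all genes. Per the file headers the authors also deposited a log2 fold change, its standard error, a p-value and an adjusted p-value for each gene, used only where credited. The deposited Wald statistic, a score, was not used. In 14 cases a gene name had become a date and was restored from the identifier. Deposited starts were 1 below the annotation's in 54899 of 55154 shared genes, so positions are printed with 1 added.

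FL and dCTD were each compared with LacZ within their own table by limma 3.58.1 in R 4.3.3 (trend and robust) on log2(value + 1), where the mean was 10 or more, with two-sided p-values adjusted by Benjamini-Hochberg and a threshold of 0.05. FL and dCTD, whose tables were normalized separately, were compared on recovered reads scaled together over 9 libraries by median-of-ratios size factors, the scale of all printed levels. For genes with few reads such fold changes come out too small. Alternatives were edgeR 4.0.16 and DESeq2 1.42.0 on the recovered reads, other scalings, filters and pseudocounts, a replicate block and libraries left out. The steps were tested on simulated data.

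The enzymes and all lists were chosen with earlier results of these data known. The genes named are the 7 enzymes, Ppargc1a, the 5 genes most like Alas1, genes that overlap an enzyme, and of each list up to 3 genes by lowest p for FL against LacZ, 2 for FL against dCTD and 1 for dCTD against LacZ. Other genes are said to be outside this rule or come with their reason, and some genes of the rule are not reported here. Sequences and start sites are from RefSeq, GRCm38.p6, and transcript lengths from GENCODE. The RNA-binding assay of the series was not analysed here.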

Additional observations from a re-analysis of the deposited data

How the results depend on the processing

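Of 350 values of the 7 enzymes under the alternatives, 331 kept their direction and side of the threshold, among them every value of Alas1, Alad and Urod. The exceptions beside those of Cpox and Uros given above were these. Cpox for dCTD against LacZ missed the threshold with the replicate block (adjusted p = 0.0839), without a filter (0.0884), with scaling by total counts without Ppargc1a (0.0576) and with TMM (0.0632), and Uros for FL against dCTD without a filter (0.0565), all by limma. With scaling by total counts Ppox passed for FL against dCTD (-0.14, adjusted p = 0.0164, limma) and Fech turned to -0.072 for FL against LacZ. With libraries left out in turn, uncalled values crossed 0: Fech ranged from -0.0085 to 0.030 and Ppox from -0.084 to 0.010 for FL against LacZ, and Ppox from -0.023 to 0.072 for dCTD against LacZ. The causes were not tested.

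The enzymes called numbered 5 in every setting for FL against LacZ, 4 to 6 for dCTD against LacZ and 5 to 7 for FL against dCTD. Alas1 exceeded the median of the later enzymes by 1.83 to 1.85, 1.28 to 1.29 and 0.48 to 0.52 in these comparisons. Genes called numbered 9584 to 11715, 7220 to 8315 and 6231 to 8551. Scaling by total counts moved the split for FL against LacZ to 4575 higher and 7140 lower (5637 and 5162 otherwise) and for FL against dCTD to 3141 higher and 5410 lower (4053 and 3228), with the median of all genes at -0.094 and -0.069.

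Same-numbered libraries correlated at -0.18 to 0.088 in their deviations, so no effect shared by replicate number was seen. This cannot show whether same-numbered cultures were handled together. With the replicate block 10720, 7396 and 7431 genes were called. With 3 libraries a group, exact tests of single values cannot pass 0.05. The limma p-values measure the spread between these libraries, with each gene's variance drawn toward a trend over all tested genes. They therefore rest in part on the spread of other genes. Changes of protein and of heme itself were not measured.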

Other observations

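The genes here lie outside the naming rule and were chosen after their values were seen. Hba-a1, an alpha-globin gene, averaged 1658 ± 108 normalized counts with FL, 528 ± 58.2 with dCTD and 25.9 ± 5.31 with LacZ (mean ± SD, n = 3 each), a log2 fold change of 5.97 ± 0.12 (SE; adjusted p = 3.56e-24) with FL and 4.31 ± 0.15 (SE; adjusted p = 1.99e-17) with dCTD against LacZ by limma. Its near-identical copy Hba-a2 averaged 0.669 ± 0.589 with FL, 0.336 ± 0.583 with dCTD and 0 with LacZ, and how reads shared by the copies were counted is not given in the sources used here. The beta-globin genes Hbb-bs and Hbb-bt had no reads in any library.

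Suox, a heme-dependent sulfite oxidase, averaged 20331 ± 1187 normalized counts with FL, 10598 ± 747 with dCTD and 12336 ± 251 with LacZ. It rose with FL against LacZ, 0.72 ± 0.040 (SE; adjusted p = 7.5e-16), fell with dCTD against LacZ, -0.23 ± 0.044 (SE; adjusted p = 0.000138), and was higher with FL than with dCTD by 0.94 ± 0.047 (SE; adjusted p = 3.24e-13) on the log2 scale by limma. Por, the reductase that passes electrons to microsomal cytochromes and heme oxygenase, averaged 7073 ± 162 with FL, 5559.6 ± 188 with dCTD and 6062 ± 255 with LacZ. Its log2 fold change was 0.22 ± 0.039 (SE; adjusted p = 1.23e-05) with FL and -0.13 ± 0.042 (SE; adjusted p = 0.0121) with dCTD against LacZ, and 0.35 ± 0.037 (SE; adjusted p = 4.72e-09) with FL against dCTD, by limma. Esrrg, the estrogen-related receptor known from oxidative muscle, fell while Esrra rose: it averaged 82.9 ± 8.09 with FL, 118 ± 9.28 with dCTD and 217 ± 29.0 with LacZ, a log2 fold change of -1.37 ± 0.13 (SE; adjusted p = 8.43e-11) with FL and -0.87 ± 0.12 (SE; adjusted p = 1.75e-06) with dCTD against LacZ by limma.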
